A study of Mus musculus with 4 samples.

Results

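The genes described here are Trp53, which encodes the tumor suppressor p53, and 9 of its direct targets, Mdm2, Cdkn1a, Ccng1, Zmat3, Phlda3, Trp53inp1, Sesn1, Eda2r and Aen. They were taken by symbol from the 22063 genes of the deposited table. All 10 were found once each, and all 10 passed the filter on low counts among the 11448 genes tested. mRNA was sequenced from ID8 cells, a mouse ovarian cancer line, with a control shRNA (shCtrl, labelled WT) and from ID8 cells with USP9X, a deubiquitinase, knocked down by shRNA (shUSP9X), in 2 libraries per group. The study placed its shRNAs in a lentiviral vector with puromycin selection, and it does not state which of its mouse shRNAs these cells carried, whether they were a clone or a pool, or whether the libraries of a group came from separate cultures. The deposited headers name the knockdown libraries shUSP9X-21 and shUSP9X-22, and the meaning of these numbers is not given. They are replicates 1 and 2 of shUSP9X here, after their titles. The p-values therefore measure only the spread between these libraries, which may be technical. The depth of the shCtrl libraries was 17232006 and 15611363 counts, and that of the shUSP9X libraries 19978889 and 17021261 counts.

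p53 is a transcription factor that stress such as DNA damage switches on. Its protein is kept low in resting cells by MDM2, a ubiquitin ligase whose gene p53 itself activates, so that p53 and Mdm2 form a feedback loop. Its targets stop the cell cycle, limit growth signals, restrain oxidative stress or favor cell death. The level of p53 is set to a large part on the protein, which these libraries do not measure. ID8 cells are generally known as a line with intact Trp53, whereas most human high-grade serous ovarian tumors carry mutations in the gene.

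In shUSP9X cells Trp53 was 1.75-fold higher than in shCtrl cells, and Cdkn1a and Aen were 1.47-fold and 1.17-fold higher. Trp53inp1 was 3.35-fold lower, Ccng1 and Eda2r were both 2.11-fold lower, and Sesn1, Mdm2 and Zmat3 were lower by 1.42-fold, 1.32-fold and 1.11-fold. Phlda3 did not pass the test. Thus 6 of the 10 genes fell and 3 rose in edgeR's quasi-likelihood test (adjusted p under 0.05 over all genes tested). The calls of Zmat3, Phlda3 and Eda2r changed when trends on GC content and transcript length were removed, as described further on. The log2 fold changes of Trp53inp1 and Ccng1 then shrank from -1.74 to -0.41 and from -1.08 to -0.25. Those of Trp53 and Cdkn1a shrank from 0.81 to 0.47 and from 0.55 to 0.24. Among all genes tested 67.3% changed at this threshold, 33.6% lower and 33.8% higher, so changes as such were common in this comparison. The median log2 fold change of the 10 genes was -0.27, beside 0 over all genes tested. After removal of the trends on GC content and length it was -0.17, beside 0.03. The study's methods give a cutoff of fold change above 1.5 and p under 0.05, with DESeq2. With this p read as raw and the cutoff applied to the edgeR values, 3 of the 10 were lower (18.7% of all genes) and 1 was higher (10.8%).

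p53 binds DNA at pairs of a decamer of 10 bases, each with a C and a G at fixed places. Promoter windows from 250 bases before to 50 bases after the annotated starts, taken from RefSeq (GRCm38.p6), were at hand for 8 of the 10 genes, in 11 windows. They were searched for pairs of the p53 decamer consensus at most 13 bases apart, with at most 1 mismatch in each decamer outside the fixed C and G. The consensus reads the same on both strands. Such a pair was found for 2 of the 8 genes, Cdkn1a and Ccng1, and for 3.09% of the 27025 genes with a window (2.71% of all windows). The pairs, 2 overlapping ones for Cdkn1a and 1 for Ccng1, are shown with 10 bases on each side because these genes moved in opposite directions, Cdkn1a up and Ccng1 down. Capitals mark the decamers.
Cdkn1a, chr17:29090906-29090937, plus strand: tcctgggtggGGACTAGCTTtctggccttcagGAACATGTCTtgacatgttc
Cdkn1a, chr17:29090928-29090947, plus strand: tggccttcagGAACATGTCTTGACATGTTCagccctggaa
Ccng1, chr11:40755462-40755481, minus strand: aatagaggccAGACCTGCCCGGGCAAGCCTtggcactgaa
The first Cdkn1a pair began 73 bases before the upstream start of that gene and had 0 mismatches and 12 bases between the decamers. The second, which shares a decamer with it, began 51 bases before that start, and the Ccng1 pair began 195 bases before its start. These latter pairs each had 1 mismatch in all and no base between the decamers.

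Decamers with no mismatch were in the windows of 6 of the 8 genes and of 9.55% of all genes with a window (8.36% of all windows). For Trp53 and Mdm2, the genes of the feedback loop, and for Aen and Sesn1 the decamer was not part of such a pair, and it is shown here in capitals.
Trp53, chr11:69580284-69580293, plus strand: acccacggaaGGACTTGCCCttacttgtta
Mdm2, chr10:117710935-117710944, minus strand: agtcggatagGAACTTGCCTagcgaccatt
Aen, chr7:78895937-78895946, plus strand: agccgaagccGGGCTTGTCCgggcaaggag
Sesn1, chr10:41887266-41887275, plus strand: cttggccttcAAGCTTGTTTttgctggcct
The decamer began 75 bases before the start of Trp53, 186 before that of Mdm2, 173 before the downstream start of Sesn1, and 121 before the downstream start of Aen. A match is a description of letters, and the libraries hold no measurement of p53 binding. Introns and more distant sequence were not analysed here.

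Usp9x, the targeted gene, checks the labels. It had 298 and 282 CPM (counts scaled to library size, normalized by TMM) in the shCtrl libraries and 19.7 and 20.5 in the shUSP9X libraries. Both shUSP9X libraries lay far below both shCtrl libraries, with a log2 fold change of -3.85 (standard error 0.06, edgeR adjusted p = 4.66e-26). With trends on GC content and length removed it was -2.31 (edgeR adjusted p = 3.97e-20).

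**Figure D1:**
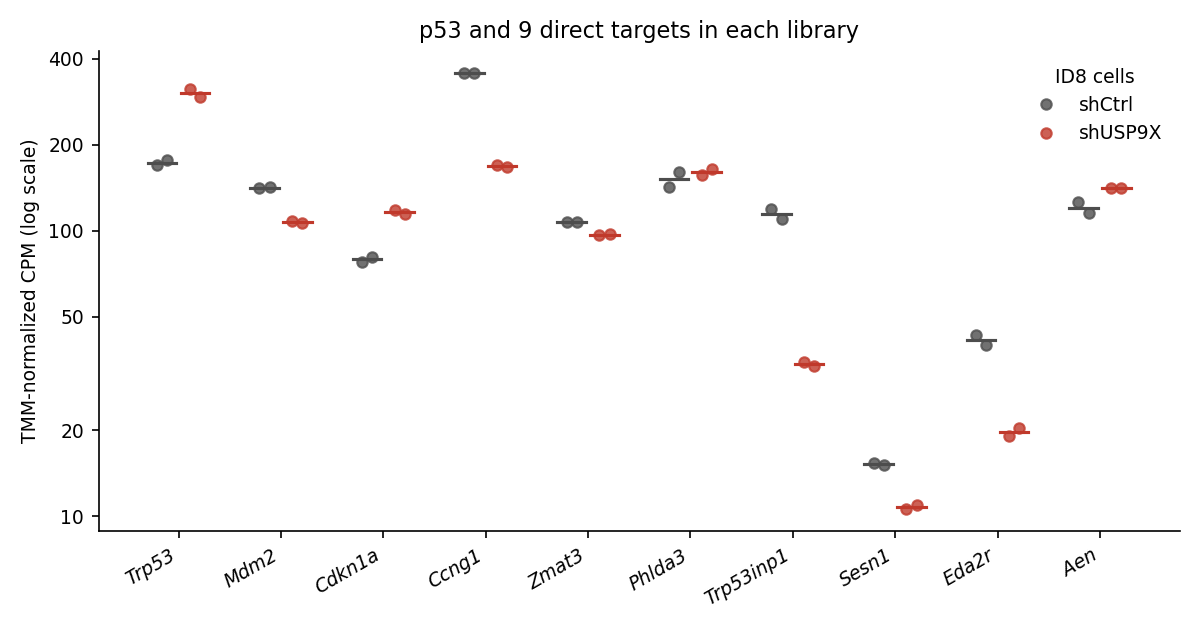
TMM-normalized CPM (log axis) of Trp53 and 9 of its direct targets in each of the 2 shCtrl (gray) and 2 shUSP9X (red) libraries, with points for libraries and lines for group means. For every gene but Phlda3 the groups do not overlap, as in 82.3% of all genes tested. Trp53, Cdkn1a and Aen are higher and the other 6 lower in shUSP9X cells, although Zmat3 turns once GC content and length trends are removed.

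Trp53 lies on chromosome 11 of GRCm38 from 69580359 to 69591873 (ENSMUSG00000059552). It had 169.6 and 177 CPM in shCtrl and 313 and 293 CPM in shUSP9X, from 2941 and 2794 counts and 6191 and 4938 counts. Both shUSP9X libraries were higher than both shCtrl libraries, a log2 fold change of 0.81 (standard error 0.04, edgeR adjusted p = 5.24e-15). GENCODE also lists a processed pseudogene of Trp53 on chromosome 17, and the sources used here do not state how reads that fit both were counted. Mdm2, the ubiquitin ligase of the loop (ENSMUSG00000020184, chromosome 10, 117688875 to 117710758), had 141 and 142 CPM in shCtrl and 108 and 107 CPM in shUSP9X. It fell by 0.40 on the log2 scale (standard error 0.05, edgeR adjusted p = 4.2e-08), with no overlap between the groups, so the 2 genes of the loop differed in direction.

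Among the targets that act on the cell cycle, Cdkn1a rose and Ccng1 fell. Cdkn1a (ENSMUSG00000023067, chromosome 17, 29090976 to 29100727) encodes p21, the inhibitor of cyclin-dependent kinases through which p53 halts the cycle. It had 77.8 and 80.8 CPM in shCtrl and 118 and 115 CPM in shUSP9X, with a log2 fold change of 0.55 (standard error 0.05, edgeR adjusted p = 5.47e-10). A gene model of the class TEC on the opposite strand shares 273 exon bases with Cdkn1a, and the counting is not stated to use strand. Ccng1 (ENSMUSG00000020326, chromosome 11, 40748552 to 40755311) encodes cyclin G1, which takes part in the control of MDM2. It had 357 and 358 CPM in shCtrl and 171 and 168 CPM in shUSP9X. It fell by 1.08 on the log2 scale (standard error 0.04, edgeR adjusted p = 1.51e-18), again without overlap.

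Of the 3 targets that act on stress and growth signals, Trp53inp1 and Sesn1 fell and Phlda3 did not pass the test. Trp53inp1 (ENSMUSG00000028211, chromosome 4, 11156431 to 11174379), a stress protein that acts in autophagy and cell death, had 119 and 110.0 CPM in shCtrl and 34.8 and 33.5 CPM in shUSP9X. In the fit without the correction for GC content and length this was the largest change of the 10 genes, with a log2 fold change of -1.74 (standard error 0.06, edgeR adjusted p = 1.24e-18). Sesn1 (ENSMUSG00000038332, chromosome 10, 41809935 to 41908424) encodes sestrin 1, which restrains the growth kinase mTORC1. It had 15.4 and 15.1 CPM in shCtrl and 10.6 and 11.0 CPM in shUSP9X, and it fell by 0.50 on the log2 scale (standard error 0.13, edgeR adjusted p = 0.00107). Phlda3 (ENSMUSG00000041801, chromosome 1, 135766119 to 135769136), whose product competes with AKT for membrane lipids, had 143 and 161 CPM in shCtrl and 157 and 165 CPM in shUSP9X. These values overlapped between the groups. The log2 fold change of Phlda3 was 0.09, with a 95% confidence interval from -0.02 to 0.19 (edgeR adjusted p = 0.15).

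In the fit without the correction for GC content and length, the targets linked to cell death and RNA control moved both ways. With that correction Eda2r stood at -0.16 and did not pass the test, and Zmat3 turned to 0.23. Eda2r (ENSMUSG00000034457, chromosome X, 97333840 to 97377216) encodes a receptor of the TNF receptor family for ectodysplasin A2. It had 43.2 and 39.8 CPM in shCtrl and 19.1 and 20.3 CPM in shUSP9X, a log2 fold change of -1.08 (standard error 0.09, edgeR adjusted p = 6.81e-11). Aen (ENSMUSG00000030609, chromosome 7, 78895854 to 78911209) encodes a nuclease that digests DNA during apoptosis. It had 126 and 115 CPM in shCtrl and 141 CPM in both shUSP9X libraries, a log2 fold change of 0.23 (standard error 0.05, edgeR adjusted p = 0.000271). Zmat3 (ENSMUSG00000027663, chromosome 3, 32334792 to 32366014) encodes an RNA-binding zinc finger protein. It had 108 and 107 CPM in shCtrl and 96.6 and 97.4 CPM in shUSP9X, a log2 fold change of -0.15 (standard error 0.05, edgeR adjusted p = 0.011). In 9 of the 10 genes the groups did not overlap, as in 82.3% of all genes tested.

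Levels of different genes were compared on the FPKM values of the authors, which are scaled for transcript length. In shCtrl cells Phlda3, Ccng1 and Trp53 stood highest, at 107 ± 9.74, 103 ± 0.676 and 98.4 ± 3.24 FPKM (mean ± SD, n = 2). The libraries of Phlda3 overlapped those of the other 2 genes. Aen, Mdm2 and Cdkn1a followed at 47.9 ± 3.42, 46.2 ± 0.376 and 43.9 ± 2.33 FPKM, and the libraries of Aen overlapped those of Mdm2 and Cdkn1a. Trp53inp1 had 21.4 ± 1.07, Zmat3 14.4 ± 0.631, Eda2r 9.27 ± 0.308 and Sesn1 5.27 ± 0.0368 FPKM, and no neighbors among these 4 overlapped. In shUSP9X cells Trp53 stood alone at the top, at 169 ± 7.90 FPKM, above Phlda3 at 111 ± 3.95 FPKM. Cdkn1a and Aen, at 61.5 ± 1.22 and 57.0 ± 0.988 FPKM, stood above Ccng1 at 47.7 ± 0.520 and Mdm2 at 34.3 ± 0.315 FPKM. Zmat3 had 13.2 ± 0.431 FPKM there. Trp53inp1, Eda2r and Sesn1 were lowest, at 6.26 ± 0.163, 4.88 ± 0.851 and 3.49 ± 0.118 FPKM. These FPKM values carry no correction for the GC content trend described next, so the order of genes between the groups can move with it.

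The 10 genes differ in transcript composition, and fold changes followed GC content across all genes tested (Spearman's rho = 0.447 across genes, which are not independent replicates). The genes were split into 10 bins of equal size by GC content. In the lowest bin, from 31.9 to 41.6%, the median log2 fold change was -0.88 and 82.2% of the genes were lower. Trp53inp1, Ccng1 and Eda2r, the 3 genes with the largest falls, all lie in this bin, at 38.8, 40.8 and 40.9% GC. Trp53 and Cdkn1a lie at 54.0 and 54.4% GC, in a bin with a median of 0.25 in which 50.5% of the genes were higher. Sesn1, at 49.8% GC, fell in a bin with a median of 0.06, where 26% were called lower and 37.8% higher. A fall was thus not rare in that bin. Mdm2 lay in a bin with a median of -0.19, where 46.9% were called lower and 20.9% higher. The bins of Zmat3, Aen and Phlda3 had medians of -0.06, 0.13 and 0.18. Longer transcripts had lower fold changes (Spearman's rho = -0.331, again across genes).

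**Figure D2:**
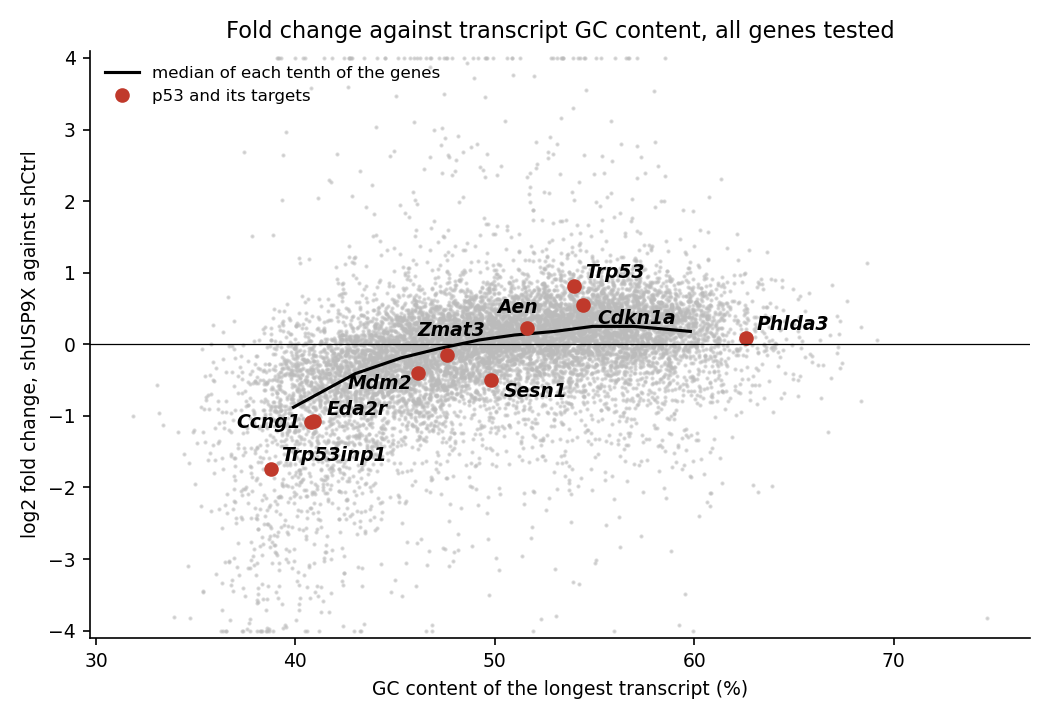
Log2 fold change of shUSP9X against shCtrl against the GC content of the longest transcript (%) for all genes tested (gray, values beyond 4 drawn at 4), with the median of each of the 10 bins (line) and the 10 p53 genes (red). Trp53inp1, Ccng1 and Eda2r lie at low GC content, where the median is -0.88, and Trp53 and Cdkn1a lie above the median of 0.25 in their bin.

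When the trends on GC content and length were removed within each library, 5 of the 10 genes passed the test as lower and 4 as higher, beside 27.9 and 35.2% of all genes. This correction cannot separate a technical trend from a real one, and removes both. The log2 fold change of Trp53 was then 0.47 (edgeR adjusted p = 3.91e-10, with 1.03e-78 to 2.99e-05 over its 15 alternatives). That of Cdkn1a was 0.24 (adjusted p = 0.000181) and that of Aen was 0.20 (adjusted p = 0.00131). Mdm2, Ccng1, Trp53inp1 and Sesn1 remained lower, at -0.29, -0.25, -0.41 and -0.58. Ccng1 and Trp53inp1 had stood at -1.08 and -1.74 before the correction. Sesn1 then had the largest estimated fall, with a 95% confidence interval from -0.83 to -0.32. This interval overlapped those of Trp53inp1 (-0.54 to -0.29) and Mdm2 (-0.38 to -0.20), so the order of these genes is not settled. Eda2r no longer passed, at -0.16 with a 95% confidence interval from -0.34 to 0.02 (adjusted p = 0.115, with 4.59e-29 to 0.125 over its alternatives). Zmat3 turned from -0.15 to 0.23 (adjusted p = 0.000169, with 1.08e-05 to 0.215 over its alternatives) and Phlda3 from 0.09 to -0.17 (adjusted p = 0.00206, with 0.000219 to 0.922 over its alternatives). The directions of Trp53, Cdkn1a, Aen, Mdm2, Ccng1, Trp53inp1 and Sesn1, and their side of the threshold, were the same in all 15 alternatives. The share of all genes tested with such stability is not given here. How much of each change comes from the GC content and length trends of these libraries was not tested.

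**Figure D3:**
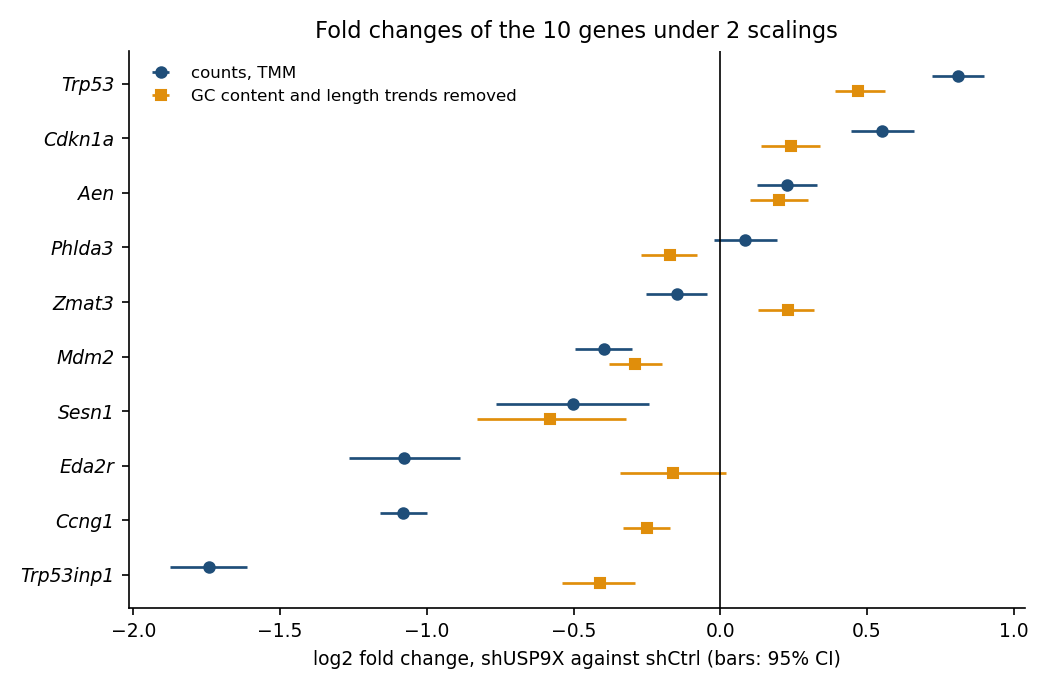
Log2 fold changes of shUSP9X against shCtrl with 95% confidence intervals for the 10 genes, from counts normalized by TMM (blue circles) and after removal of the GC content and length trends (orange squares). Trp53, Cdkn1a and Aen stay to the right of 0 and Mdm2, Sesn1, Ccng1 and Trp53inp1 to the left, while Zmat3 and Phlda3 change sides and the interval of Eda2r reaches 0.

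p53 is held in check or switched on by many other proteins, and 40 genes of such regulators were listed, of which 36 were tested. Of these, 14 were lower and 11 higher, with a median log2 fold change of -0.05, so that 69.4% changed, beside 67.3% of all genes. The largest falls were those of Atm, Atr and Prkdc, which encode kinases of the DNA damage response. Atm fell from 78.0 ± 0.0992 to 17.3 ± 2.11 CPM (mean ± SD, n = 2), a log2 fold change of -2.18 (standard error 0.08, edgeR adjusted p = 2.43e-18). Atr fell from 47.6 ± 2.06 to 11.3 ± 1.12 CPM and Prkdc, the catalytic subunit of DNA-PK, from 37.1 ± 2.25 to 10.1 ± 0.247 CPM, with log2 fold changes of -2.07 and -1.87. Mdm4, the partner of MDM2 that blocks p53 activity, fell from 112 ± 1.97 to 46.7 ± 4.06 CPM (log2 fold change -1.27, edgeR adjusted p = 6.6e-16). Mdm4 and Mdm2 were thus both lower. Ube3a, a ubiquitin ligase that targets p53 with a viral partner, had a log2 fold change of -1.58. Usp10, a deubiquitinase of p53, rose from 72.1 ± 0.776 to 137 ± 6.08 CPM (log2 fold change 0.92, edgeR adjusted p = 2.12e-14). After removal of the trends on GC content and length, Atm, Atr, Prkdc, Mdm4 and Usp10 stood at -1.14, -0.87, -0.81, -0.52 and 0.71, and Ube3a turned to 0.37. In that fit 8 of the 36 regulators were lower and 16 higher, beside 27.9 and 35.2% of all genes. The median of the regulators was then 0.07. Other kinases of the list went different ways. Chek1, the kinase downstream of Atr, was lower (-0.66, edgeR adjusted p = 2.63e-06) but stood at 0.17 (adjusted p = 0.132) once the trends were removed, and Hipk2 was higher (0.20, adjusted p = 0.0152). Chek2, the kinase downstream of Atm, did not pass the test (log2 fold change -0.16, edgeR adjusted p = 0.0912), nor did Usp7, a deubiquitinase of both p53 and MDM2 (-0.09, adjusted p = 0.0586), though Usp7 was higher with the trends removed (0.25, adjusted p = 6.91e-06). Chek1, Hipk2, Chek2 and Usp7 were named after their values had been seen. Cdkn2a, whose alternative product ARF blocks MDM2, had 0 counts in 3 libraries and 1 count in the other, and was not tested.

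Further p53 targets moved in both directions. Of 60 listed genes 58 were in the table and 53 were tested, with 13 lower, 21 higher and a median log2 fold change of 0.10. Thus 64.2% of them changed, beside 67.3% of all genes. With trends on GC content and length removed, 17 were lower and 17 higher, beside 27.9 and 35.2% of all genes. The median of these targets was then 0.01. Among the named genes Tap1, a peptide transporter of antigen presentation, rose from 6.76 ± 0.0997 to 19.9 ± 0.537 CPM (log2 fold change 1.56, edgeR adjusted p = 6.09e-11). Steap3, an iron reductase, rose from 6.05 and 7.02 CPM to 17.7 and 18.3 CPM (1.46, adjusted p = 5.75e-10). Gadd45a, a stress gene of growth arrest, fell from 12.0 ± 0.866 to 5.33 ± 0.523 CPM (-1.17, adjusted p = 4.57e-07), and the antiproliferative gene Btg2 fell from 35.7 and 30.6 CPM to 17.4 and 18.6 CPM (-0.89, adjusted p = 2.03e-08). Polk, a translesion polymerase, and Rrm2b, a subunit of ribonucleotide reductase, had log2 fold changes of -1.33 and -1.11. After removal of the trends on GC content and length, Gadd45a and Btg2 stood at -1.45 and -1.01, Polk at -0.58 and Rrm2b at 0.05 (adjusted p = 0.731). Several further targets that act in cell death were named after their values had been seen, and they went different ways. Bax rose (log2 fold change 0.41, edgeR adjusted p = 2.47e-07) and Pmaip1 fell (-0.49, adjusted p = 0.00043). Bbc3 (-0.50, adjusted p = 0.068) and Fas (-0.22, adjusted p = 0.275) did not pass the test. Apaf1 was lower (-0.52, adjusted p = 2.72e-05) and Ei24 higher (0.48, adjusted p = 2.89e-08), while Tnfrsf10b (0.21), Perp (-0.09) and Pidd1 (0.25) did not pass the test. With the trends removed, Bax stood at 0.14 (adjusted p = 0.024), Pmaip1 turned to 0.09 (adjusted p = 0.475), Fas turned to 0.06 (adjusted p = 0.779) and Bbc3 passed the test at -0.63 (adjusted p = 0.0213). Ei24 then stood at 0.32 and Apaf1 at -0.11 (adjusted p = 0.293), and Perp passed the test at -0.20 (adjusted p = 0.000342).

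p21 lowers many cell cycle genes through the DREAM repressor complex. All 22 listed genes of this kind were tested, and 8 were lower and 9 higher, with a median log2 fold change of 0.06. This is 77.3% of the list, beside 67.3% of all genes, and Chek1 is also among the regulators. Removal of the trends on GC content and length left 7 lower and 9 higher, beside 27.9 and 35.2% of all genes. The median of the list was then -0.02. Mki67, the proliferation marker Ki-67, fell from 875 ± 49.2 to 40.0 ± 0.146 CPM, a log2 fold change of -4.45 (standard error 0.05, edgeR adjusted p = 2.18e-29). Top2a, the topoisomerase of dividing cells, fell from 1206 ± 19.5 to 560 ± 2.53 CPM, and the spindle checkpoint kinase Bub1 from 116 ± 2.42 to 52.2 ± 1.03 CPM (log2 fold changes -1.11 and -1.15). Ccne2 was lower at -0.94 and turned to 0.59 with the trends removed. In contrast Mcm5, a subunit of the replicative helicase, rose from 206 ± 2.05 to 348 ± 13.3 CPM, and the mitotic kinase Plk1 from 170.3 ± 1.85 to 274 ± 0.32 CPM (0.76 and 0.69). With the trends removed, Mki67, Top2a, Bub1, Mcm5 and Plk1 stood at -3.86, -0.52, -0.38, 0.58 and 0.37. The list thus held genes that changed in both directions while Cdkn1a was higher.

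**Figure D4:**
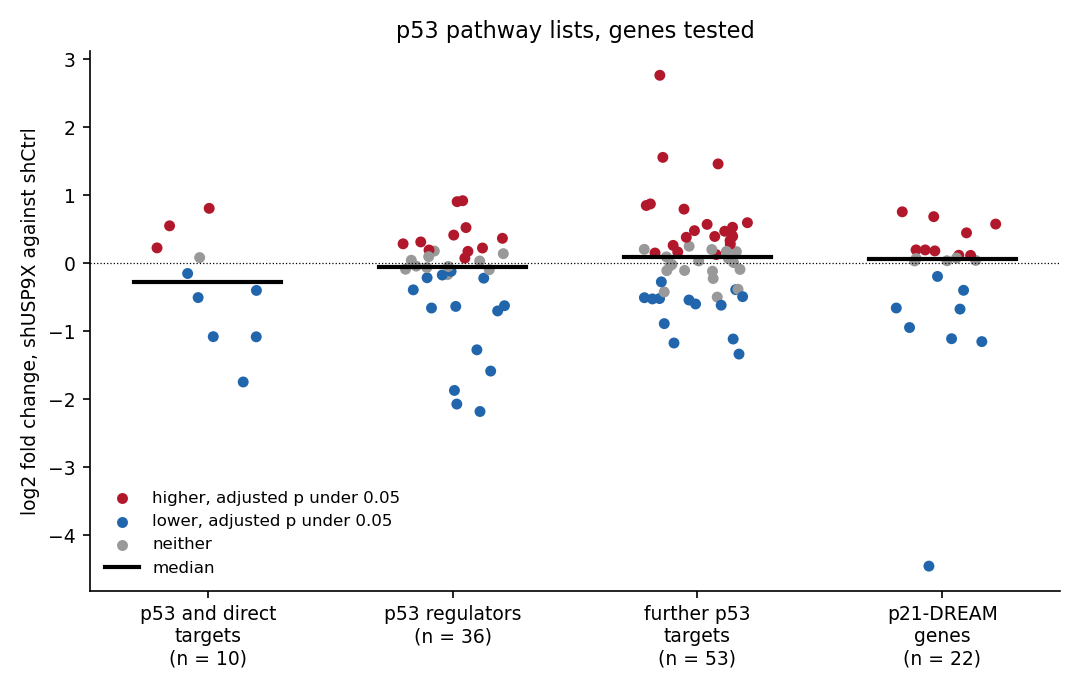
Log2 fold change of shUSP9X against shCtrl for the tested genes of the 4 lists (points, colored by edgeR's call at an adjusted p under 0.05), with the median of each list (black line). The medians are -0.27, -0.05, 0.10 and 0.06 from left to right, each list holds genes called in both directions, and Mki67 lies lowest at -4.45.

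The line was checked against cell type markers. Of 9 epithelial and mesothelial markers, 7 lay above 3 counts in all libraries, with Krt19 as the most abundant, and their summed level was 2435 and 2459 CPM in shCtrl and 2817 and 2761 CPM in shUSP9X. Krt7 had 0 counts in both shCtrl libraries. Of the 7, Krt8, Krt14, Krt18 and Krt19 were higher and Msln and Wt1 were lower, but Krt19 turned from 0.12 to -0.24 (edgeR adjusted p = 2.37e-07) and Upk3b became lower (-0.18, adjusted p = 0.000756) once trends on GC content and length were removed. Of 8 leukocyte markers, Cd3e and C1qa were among those at 0 in all libraries, and Cd68 was the most abundant. Their sum was 4.33 and 4.30 CPM in shCtrl and 8.30 and 7.06 CPM in shUSP9X. Ptprc and Csf1r, the 2 that were called higher, had 0 counts in both shCtrl libraries, and Ptprc had 29 and 18 and Csf1r 17 and 13 counts in shUSP9X. Endothelial markers summed to between 0.519 and 1.26 CPM, with 3 of 5 at 0 in all libraries, and erythroid markers to at most 0.475 CPM. Fibroblast markers, of which ID8 cells expressed Dcn, Col1a1, Pdgfra and Col3a1 and which had Lum and Thy1 at 0, summed to 254 and 261 CPM in shCtrl and 149 and 147 CPM in shUSP9X. Most of this sum was Dcn, whose log2 fold change went from -0.46 to -0.07 (edgeR adjusted p = 0.165) with the correction for GC content and length, while Col1a1 and Pdgfra stood at -1.70 and -2.60. The part of these differences in the p53 results was not tested. In bulk libraries, fewer cells of a type and less RNA per cell cannot be told apart.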

How the data were processed

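The authors mapped reads to GRCm38 and deposited estimated counts and FPKM values per gene and library. The submitters' processing notes list fastp 0.18.0, Bowtie2 2.2.8, HISAT2, StringTie 1.3.1 and RSEM without roles, and the annotation release is not given in the sources used here. The estimated counts deposited by the authors, of which 6.4 to 6.69% were not whole, were rounded. The FPKM values deposited by the authors were used for levels between genes and as an alternative.

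Low counts were removed with filterByExpr. After TMM normalization, edgeR 4.0.16 (R 4.3.3) gave quasi-likelihood tests with Benjamini-Hochberg adjustment over 11448 genes. Standard errors come from the fitted weights and the quasi-dispersion. The common biological coefficient of variation was 0.0352. An exact permutation test of 2 libraries against 2 cannot go below a p of 0.333, so none was run. A count of 3 (0.152 to 0.19 CPM) was the floor of detection, and it covers counting error only. GENCODE M21 (GRCm38) gave positions, GC content and length of the longest transcript for 99.8% of the genes tested. A loess offset (span 0.3) removed the trends on both within each library.

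The 10 genes, the regulator, target and p21-DREAM lists and the alternatives were chosen with earlier results of these data known. Named list genes are the up to 6 per list with the largest change that passed the test, did not overlap between groups and reached 3 in mean log2 CPM. The alternatives were DESeq2 1.42.0, 3 other scalings, 2 other filters, limma 3.58.1 (limma-trend) on log2 FPKM with a pseudocount of 1 or 0.1 (mean FPKM 1 or more), a replicate block, the offset, both together, each library left out, and the cutoff of the study's methods. The fits were tested on simulated data. Without a GC content trend and without the offset, 3 of 11140 unchanged genes were called. With a straight GC content trend added to the simulated shUSP9X libraries, 6444 of 11156 were called without the offset and 9 with it. The offset is built to remove such a trend, so this checks only that the fits run as intended. How much a trend contributes to the calls in the real libraries was not tested.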

Additional observations from a re-analysis of the deposited data

How the results depend on the processing

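Alternatives are set against the 7 of 10 p53 genes whose direction and call did not depend on any of the 15 fits. The share of all genes tested that were as stable is not given here, so this count is not a trait of the p53 genes. The offset for GC content and length changed the sign of Zmat3 (0.23), Phlda3 (-0.17), Ube3a (0.37), Ccne2 (0.59) and Rrm2b (0.05, and 0.04 with the replicate block added). Rrm2b did not pass the test with the offset (edgeR adjusted p = 0.731), and Phlda3 had not passed it without the offset (edgeR adjusted p = 0.15). The offset also moved the regulators called lower from 14 to 8, and did so with the block too. The offset removes GC content and length trends by its construction, and no other cause was tested. With a fold change above 1.5 and a raw p under 0.05, all genes changed numbered 3376 (2143 lower, 1233 higher) in place of 7707. The p53 genes changed numbered 4 (3 lower, 1 higher) in place of 9, the regulators 9 lower and 2 higher, the further targets 6 lower and 7 higher, and the p21-DREAM genes 6 lower and 2 higher. This rule changes both the p and the size asked for, and the raw p alone called 7979 genes. Zmat3 lost its call in DESeq2 (adjusted p = 0.0665), in both FPKM fits and without either shUSP9X library, and Phlda3 gained one with upper quartile scaling (0.12, adjusted p = 0.0466) and without shCtrl replicate 2 (0.18). Under the other scalings the median over all genes shifted by no more than 0.03. When single libraries were left out, the genes changed numbered 6741 to 7521, where the lone library of a group is assumed to vary like the other group, Trp53 ranged from 0.76 to 0.86 and Trp53inp1 ranged from -1.79 to -1.68. The labels give both groups replicate numbers 1 and 2, but same-numbered libraries did not deviate together (correlation -0.0453 across genes), so the numbers were not taken as pairs. With the replicate block the genes changed numbered 7665, and it altered no call of a p53 gene. Of 270 values of the 18 named list genes under alternatives, 264 kept direction and call. The other 6, of Ube3a, Ccne2 and Rrm2b, changed sign in the fits with the offset. These 18 genes were picked from these same data for large changes without overlap, so their stability follows in part from that choice. The depth gave the least abundant p53 gene, Sesn1, 185 counts in its lowest library.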
